A study of Mus musculus with 3 samples.

Results

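The miR-148 and miR-152 family consists of 3 hairpins, miR-148a, miR-148b and miR-152, each of which gives a 5p and a 3p mature miRNA. The members were the rows of the retinal miRNA tables with these names, mmu-miR-148a-3p, mmu-miR-148a-5p, mmu-miR-148b-3p, mmu-miR-148b-5p, mmu-miR-152-3p and mmu-miR-152-5p, or 6 of 1915 mature miRNAs, and each had reads at every age. The tissue was the retina of C57BL/6 mice (C57BL/6J in the study's methods) aged 1 day (P1), 7 days (P7) or 17 days (P17) after birth, with no treatment or mutation on the labels. Each age is 1 library pooled from 5 eyes, so there is no spread between samples to set a difference against, and library preparation and age cannot be told apart. The total miRNA count was between 11426320 and 12759995 per library, and 1 read was worth 0.0784 to 0.0875 RPM, the read count scaled to the total of its library.

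A miRNA is cut from a hairpin as a short duplex, and usually one strand, the guide, is loaded into an Argonaute protein while the other is degraded. The guide pairs with messenger RNAs mainly through its seed, bases 2 to 8, and lowers their stability and translation. The 3p strands are the guides of this family. MiR-148a and miR-152 are known for acting on the mRNA of the maintenance DNA methyltransferase DNMT1, and miR-148a also for acting on the LDL receptor mRNA in liver and for its part in B cell tolerance.

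The 3p sequences are shown because a common seed makes these miRNAs a family. Capitals mark the seed, and each is written 5′ to 3′ as in RefSeq for GRCm38.p6.
miR-148a-3p: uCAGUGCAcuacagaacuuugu
miR-148b-3p: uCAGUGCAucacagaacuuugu
miR-152-3p: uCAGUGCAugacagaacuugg

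All 3 guides carry the seed CAGUGCA, which no other of the 1679 mature names in the RefSeq table has. Counted from 1 at the 5′ end of the first named miRNA, miR-148a-3p and miR-148b-3p differ at C9U and U10C only. MiR-152-3p differs from miR-148a-3p at C9U, U10G and U20G and is 1 base shorter, with 21 bases against 22. The first difference lies at base 9, so a read of full length can be told apart, while the counting rule for reads shared by such near-identical miRNAs is not given in the sources used here.

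The 5p strands are shown because they differ more than the guides.
miR-148a-5p: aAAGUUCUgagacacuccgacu
miR-148b-5p: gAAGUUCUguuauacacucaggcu
miR-152-5p: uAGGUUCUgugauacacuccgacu

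Over their 22 shared positions miR-148a-5p differs from miR-148b-5p at 9 bases and from miR-152-5p at 10. MiR-148b-5p and miR-152-5p, of 24 bases each, differ at 5. MiR-148a-5p and miR-148b-5p share the seed AAGUUCU with each other and with no other name in the table, and the seed of miR-152-5p, AGGUUCU, was found in no other name. The longest run common to the 3p strands is ACAGAACUU, and that common to the 5p strands is GUUCUG.

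The hairpins lie on different chromosomes of GRCm38. Mir148a (ENSMUSG00000065505) is at chr6:51269812-51269910 on the minus strand and overlaps no annotated gene. Mir148b (ENSMUSG00000065560) is at chr15:103285125-103285221 on the plus strand, in intron 1 of all 4 transcripts of Copz1. Mir152 (ENSMUSG00000065515) is at chr11:96850393-96850465 on the plus strand, in intron 1 of 3 of the 5 transcripts of Copz2 and in no Copz2 exon. That intron has 676 bases in the first listed transcript. Copz1 and Copz2 encode the zeta subunits of the COPI coat, which carries cargo from the Golgi back to the endoplasmic reticulum, and both are read in the direction of their miRNA. The neighbours are paralogs as well. Each hairpin has a gene of the Nfe2 family of CNC transcription factors nearby, Nfe2l3 at 162.8 kb from Mir148a, Nfe2 at 26.7 kb from Mir148b and Nfe2l1 at 20.4 kb from Mir152. Each also has a gene for an HP1 chromatin protein, Cbx3 at 200.4 kb, Cbx5 at 45.3 kb and Cbx1 at 41.8 kb, and a Hox cluster on the same chromosome, at 886 kb (Hoxa), 248 kb (Hoxc) and 482 kb (Hoxb).

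The guide of miR-148a made up most of the family. In the P1, P7 and P17 libraries miR-148a-3p was counted 319744, 247008 and 193786 times. At P1 this gave 27983 RPM, with a 95% Wilson interval of 27888 to 28079. The level was 19358 RPM in the P7 library (19283 to 19434) and 16620 RPM in the P17 library (16547 to 16694). It took place 9 among all miRNAs of the P1 library, place 13 of the P7 library and place 16 of the P17 library.

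MiR-148b-3p, the guide from the Copz1 intron, was roughly an order of magnitude less abundant, with 2979, 1797 and 1587 RPM at the 3 ages in order. These levels rest on 34043, 22934 and 18504 reads. As for miR-148a-3p, the P1 value was the highest and the P7 and P17 values lay close together.

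MiR-152-3p, the guide from the Copz2 intron, had 678 RPM in the P1 library (7751 reads), 188 RPM in the P7 library (2402 reads) and 212 RPM in the P17 library (2467 reads). It alone among the members was not lowest at P17.

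The 5p strands were scarce. In the same order of ages, miR-148a-5p had 103.3, 48.4 and 24.3 RPM, from 1180, 617 and 283 reads. MiR-148b-5p had 52.9, 21.0 and 14.5 RPM, from 604, 268 and 169 reads. MiR-152-5p had 30.7, 9.09 and 6.86 RPM, from 351, 116 and 80 reads. Each was highest at P1 and lowest at P17. At each age the order of levels was miR-148a-3p, miR-148b-3p, miR-152-3p, miR-148a-5p, miR-148b-5p and miR-152-5p, and the intervals of neighbours in that order did not overlap within a library. These are shares of reads, and how efficiently each sequence enters a small RNA library was not tested.

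**Figure D1:**
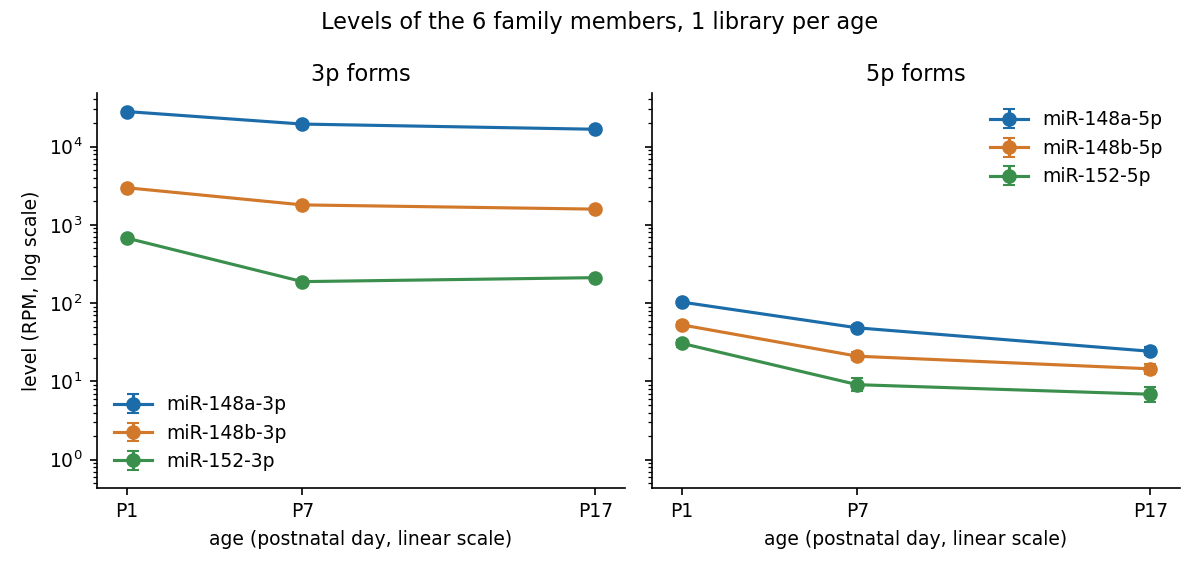
Levels of the 3p forms (left) and 5p forms (right) in RPM on a log axis against age in postnatal days, with 1 library per age and bars for the 95% Wilson interval of counting error, mostly smaller than the points. The guides lie above the 5p forms at every age, and miR-152-3p drops from 678 to 188 RPM between P1 and P7.

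Together the 6 members took 3.18%, 2.14% and 1.85% of the reads of the P1, P7 and P17 libraries. The 3p forms, all of one seed, summed to 31641, 21344 and 18419 RPM. Their level was 1.48-fold lower at P7 than at P1 (exact 95% interval 1.48 to 1.49, counting error only) and 1.16-fold lower at P17 than at P7 (1.15 to 1.17). The summed 5p forms had 186.8, 78.4 and 45.6 RPM, a level 4.10-fold lower at P17 than at P1 (3.72 to 4.51).

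Between P1 and P7, 4 of the 6 members were over 2-fold lower on the log2(RPM + 1) scale and none was over 2-fold higher. Of the 648 miRNAs that averaged 1 RPM or more, 44.8% were lower and 3.09% higher by the same criterion at this step, and the median log2 change was -0.87. The 4 members were miR-152-3p (-1.84), miR-152-5p (-1.65), miR-148b-5p (-1.29) and miR-148a-5p (-1.08). The abundant guides were less changed, at -0.53 for miR-148a-3p and -0.73 for miR-148b-3p. Thus both lay above the median of all miRNAs, while the other 4 members lay below it.

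The sign for these guides depended on the scaling. The photoreceptor cluster of miR-182, miR-183 and miR-96 took 7.85% of the P1 reads and 30.6% of the P7 reads. With these miRNAs left out of the total the signs stayed, at -0.12 for miR-148a-3p and -0.32 for miR-148b-3p. With median-of-ratios size factors, which place the median miRNA at -0.04, the change of miR-148a-3p from P1 to P7 was 0.43 and that of miR-148b-3p was 0.23, whereas miR-152-3p was still lower, at -0.89. Under the 5 scalings compared, miR-152-3p and each of the 5p forms had a negative change from P1 to P7.

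Between P7 and P17 no member was over 2-fold lower or higher, where 11.6% of all miRNAs were lower and 14.0% higher by that criterion. The closest was miR-148a-5p, with a log2 change of -0.97. MiR-148a-3p changed by -0.22 and miR-148b-3p by -0.18, against a median of -0.05 for all miRNAs. MiR-152-3p was the member with a positive change, 0.17, and without a pseudocount its log2 ratio was 0.17 (exact 95% interval 0.09 to 0.25). That sign turned, to -0.08, with a library total that leaves out the top 10 miRNAs of each library. For miR-152-5p the interval of the ratio, -0.84 to 0.02, included no change, so a difference was not detectable at this depth.

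From P1 to P17 the same number of members, 4, was over 2-fold lower, where the share among all miRNAs was 46.8%, and none was over 2-fold higher, where it was 10.5%. The log2 change was -2.04 for miR-148a-5p, -2.01 for miR-152-5p, -1.80 for miR-148b-5p and -1.68 for miR-152-3p. It was -0.91 for miR-148b-3p and -0.75 for miR-148a-3p. Without a pseudocount miR-148a-3p was 1.68-fold lower at P17 (1.67 to 1.69) and miR-152-3p 3.21-fold lower (3.06 to 3.36). Relative to the median of all miRNAs, -0.91, the change was 0.16 for miR-148a-3p, 0.00 for miR-148b-3p and -0.77 for miR-152-3p, and it lay between -1.13 and -0.89 for the 5p forms. The share of all miRNAs with a lower change was 54.2% for miR-148a-3p and 20.8% for miR-148a-5p.

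**Figure D2:**
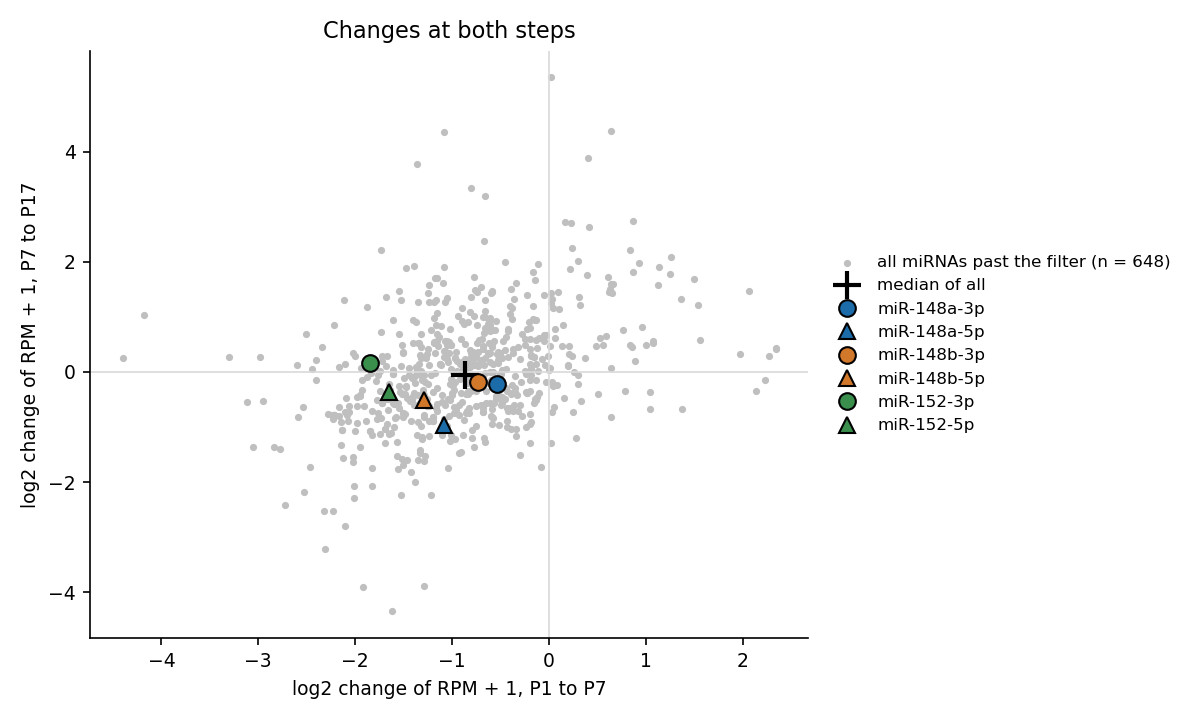
Log2 change of RPM + 1 from P1 to P7 (horizontal) and from P7 to P17 (vertical) for 648 miRNAs (grey), their median (cross) and the members (circles for 3p, triangles for 5p). MiR-148a-3p and miR-148b-3p sit beside the median, miR-152-3p lies to the left at -1.84, and the 5p forms lie below and to the left of the median.

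With median-of-ratios size factors the P1 to P17 change was 0.29 for miR-148a-3p and 0.14 for miR-148b-3p, so that neither guide has a direction that holds across scalings. Under the same factors 2 members remained over 2-fold lower, miR-152-5p at -1.04 and miR-148a-5p at -1.02, and miR-152-3p was at -0.63. By this criterion and scaling the shares among all miRNAs were 23.9% lower and 25.5% higher.

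**Figure D3:**
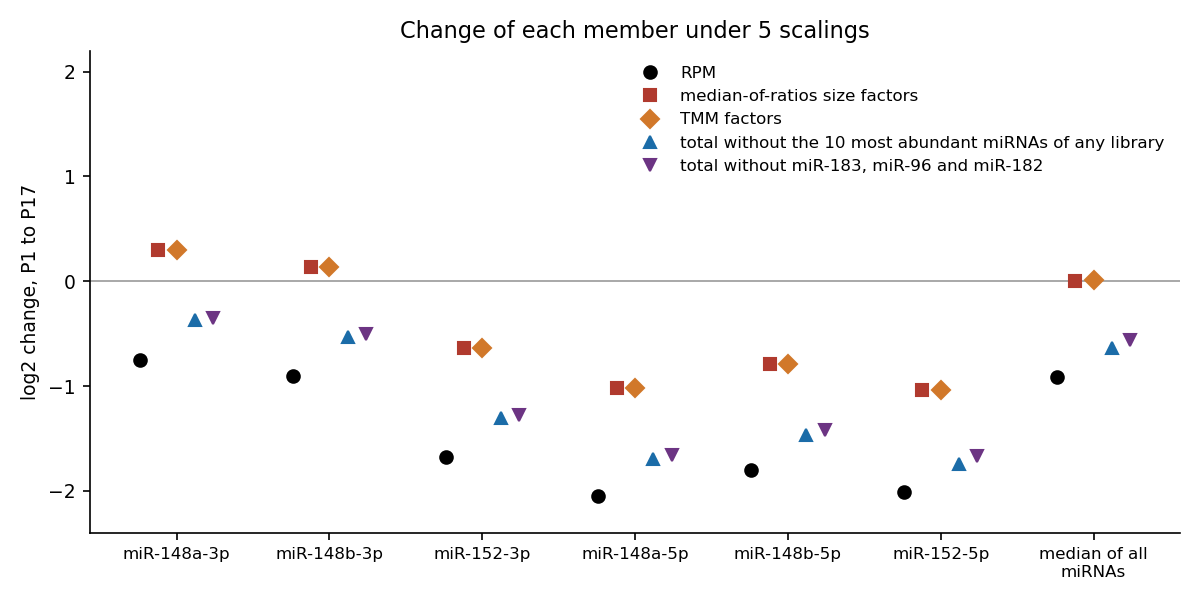
Log2 change from P1 to P17 of each member and, at the right, of the median of all miRNAs, under RPM and 4 other scalings, 1 symbol each. MiR-148a-3p runs from -0.75 to 0.30 across the scalings, whereas miR-152-3p and the 5p forms stay below 0.

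Ratios between members do not depend on the library total. MiR-148a-3p made up 88.4% of the summed 3p reads in the P1 library (Wilson interval 88.3 to 88.5), 90.7% in the P7 library (90.6 to 90.8) and 90.2% in the P17 library (90.1 to 90.4). MiR-148b-3p made up 9.42%, 8.42% and 8.62%. MiR-152-3p made up 2.14% in the P1 library (2.10 to 2.19), 0.882% in the P7 library (0.848 to 0.918) and 1.15% in the P17 library (1.10 to 1.19). Between P1 and P7 the share of miR-148a-3p differed by little in relative terms, and that of miR-152-3p by over 2-fold.

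Per read of miR-148b-3p there were 9.39, 10.8 and 10.5 reads of miR-148a-3p at the 3 ages. This ratio changed by 0.16 on the log2 scale from P1 to P17 (95% Wald interval 0.13 to 0.18). Per read of miR-152-3p there were 41.3, 102.8 and 78.6 reads of miR-148a-3p, a log2 change of 1.32 from P1 to P7 (1.25 to 1.38) and of -0.39 from P7 to P17 (-0.47 to -0.31). The ratio of miR-148b-3p to miR-152-3p, the guides from the Copz1 and Copz2 introns, was 4.39, 9.55 and 7.501 at the 3 ages. Both ratios to miR-152-3p were highest at P7, and these changes were outside counting error.

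Among the 5p strands, the ratio of miR-148a-5p to miR-152-5p was 3.36, 5.32 and 3.54 at the 3 ages. It was higher at P7 than at P1 by 0.66 on the log2 scale (0.33 to 1.00), in the same direction as the ratio of the guides. From P1 to P17 its change was 0.07 (-0.32 to 0.47), so a difference between those ages was not detectable.

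In each hairpin the 3p strand outnumbered the 5p strand at every age. For miR-148a there were 271, 400.3 and 685 reads of 3p per read of 5p at the 3 ages. For miR-148b there were 56.4, 85.6 and 109.5, and for miR-152 there were 22.1, 20.7 and 30.8. Of the 191 hairpins whose arms both averaged 1 RPM or more, 83 gave more 3p than 5p reads at each age, not necessarily the same ones. Ordered from the lowest 5p share, miR-148a took places 3, 2 and 1 of these hairpins, miR-148b took places 16, 11 and 12, and miR-152 places 24, 27 and 22.

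The log2 ratio of 5p to 3p reads of miR-148a was -8.08, -8.65 and -9.42 at the 3 ages. It changed by -0.56 from P1 to P7 (95% Wald interval -0.70 to -0.42) and by -0.77 from P7 to P17 (-0.98 to -0.57), and so by -1.34 from P1 to P17 (-1.52 to -1.15). For miR-148b the change from P1 to P17 was -0.96 (-1.21 to -0.71), of which -0.60 came before P7. For miR-152 it was -0.48 (-0.84 to -0.13), with 0.09 before P7 (-0.22 to 0.40) and -0.57 after it (-0.99 to -0.16). The 5p strand was therefore lower relative to its guide at P17 than at P1 in all 3 hairpins, and the intervals of miR-148a and miR-152 did not overlap.

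**Figure D4:**
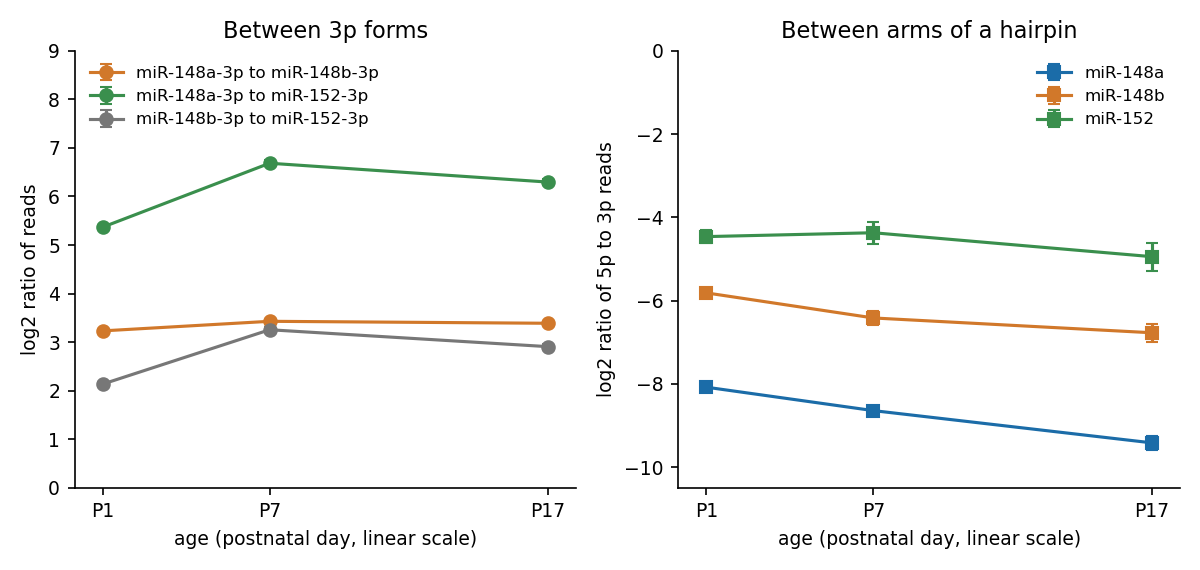
Left, log2 ratio of reads between pairs of 3p forms, and right, log2 ratio of 5p to 3p reads of each hairpin, against age, with 1 library per age and bars for the exact 95% interval of counting error. The ratios to miR-152-3p peak at P7, and the 5p to 3p ratio of miR-148a drops from -8.08 to -9.42.

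Arm ratios moved in many hairpins. Over the 190 hairpins with reads of both arms at P1 and P17, the 5p to 3p ratio had a median log2 change of 0.16, with the middle 90% from -1.90 to 1.77. MiR-148a, miR-148b and miR-152 lay inside that range, with 11.1%, 17.9% and 25.8% of hairpins below them. Their shift is therefore larger than counting error and within the spread of other hairpins between these libraries.

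**Figure D5:**
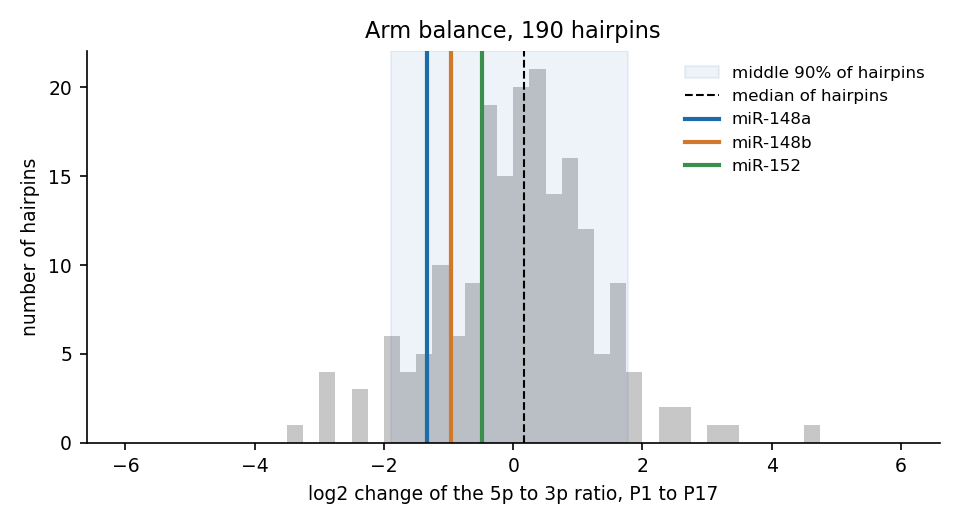
Number of hairpins by log2 change of the 5p to 3p ratio from P1 to P17, with the middle 90% shaded, the median dashed and the 3 family hairpins as coloured lines. All 3 lie left of the median of 0.16 and inside the shaded range.

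The miRNAs most like each member were taken as those nearest in the pair of log2 changes, P1 to P7 and P7 to P17, among 425 other miRNAs that averaged 10 RPM or more, over 3 libraries. Nearest to miR-148a-3p were miR-30c-1-3p (distance 0.11 log2 units), miR-135a-5p (0.11) and miR-140-5p (0.12). Nearest to miR-148b-3p were miR-493-5p (0.02), miR-30b-3p (0.04) and miR-28c (0.08). MiR-148a-3p and miR-148b-3p were 0.20 apart, and 8 miRNAs outside the family were nearer to miR-148a-3p than that. Nearest to miR-152-3p were miR-431-5p (0.02), miR-5100 (0.18) and miR-218-5p (0.20). MiR-431-5p had 134.8, 36.6 and 41.9 RPM at the 3 ages. MiR-148a-3p was 1.37 from miR-152-3p, and 267 miRNAs outside the family were nearer to it, although both carry the same seed.

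For the 5p strands the nearest were miR-582-5p, miR-25-3p and miR-374c-5p for miR-148a-5p (0.02 to 0.14), miR-34c-5p, miR-28a-3p and miR-532-5p for miR-148b-5p (0.08 to 0.11), and miR-505-3p, miR-1306-5p and miR-674-5p for miR-152-5p (0.09 to 0.14). MiR-25-3p, the nearest abundant one, had 10373, 5014 and 2550 RPM. With 3 libraries many miRNAs share a course, and a small distance is a description only.

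A second group of miRNAs carries part of the family's seed 1 base nearer the 5′ end. Bases 3 to 8 of the family's guides, AGUGCA, are bases 2 to 7 of 7 other mature miRNAs in the RefSeq table (0.417% of the names), among them members of the miR-130 and miR-301 family. That table has no mature sequence for miR-301b-3p, so this miRNA was not part of the search. MiR-130a-3p and miR-301a-3p are shown for comparison, again with bases 2 to 8 in capitals.
miR-130a-3p: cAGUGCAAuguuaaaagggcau
miR-301a-3p: cAGUGCAAuaguauugucaaagc

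Of these 7, miR-130c, miR-721, miR-6341 and miR-6389 had no reads in any library. MiR-130a-3p had 424.5, 136.5 and 62.9 RPM at the 3 ages, and miR-301a-3p had 92.0, 29.9 and 16.3 RPM. The 9 listed forms of the miR-130 and miR-301 family, both arms, include 8 past the filter, of which 4 are 3p forms. All 8 were over 2-fold lower at P17 than at P1 under RPM and each of the 4 other scalings. Of all miRNAs, 46.8% were lower with RPM and 23.9% with median-of-ratios or TMM factors. Without the top 10 miRNAs of each library 265 of 648 were lower, and without miR-182, miR-183 and miR-96 248 were. The median log2 change of the 8 forms was -3.18 with RPM, against -0.91 over all miRNAs. At P1 the guides with the full seed had 31641 RPM together, and the 3p forms of the miR-130 and miR-301 family, miR-301b-3p included, had 823 RPM.

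MiRNAs known to act on DNA methyltransferases formed a further list, in which the family's guides were not counted. It was chosen with earlier results of these data known, so its counts are a description only. Of its 8 miRNAs, 5 were over 2-fold higher at P17 than at P1 and 1 over 2-fold lower, where 10.5% and 46.8% of all miRNAs were, with a median log2 change of 2.48 against -0.91 over all miRNAs. The 5 were miR-29a-3p, miR-29b-3p and miR-29c-3p, of one family, and miR-126a-3p and miR-143-3p. With median-of-ratios size factors 6 were higher and none lower, where 25.5% and 23.9% of all miRNAs were. MiR-29a-3p, which acts on DNMT3A and DNMT3B, had 31.4, 49.6 and 1045 RPM at the 3 ages, a log2 change of 5.01. MiR-342-3p, which acts on DNMT1, was the one that was lower, with 440.2, 273.9 and 177.1 RPM (-1.31), and its change under median-of-ratios factors was below 2-fold. MiR-126a-3p (2.76) and miR-143-3p (2.92), also on the list, are markers of endothelium and mural cells as well. Neither guide that dominates the miR-148 family, miR-148a-3p or miR-148b-3p, changed over 2-fold between any pair of ages, with RPM or with median-of-ratios factors.

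Markers showed the labelled tissue at every age, with miR-182-5p, miR-183-5p, miR-96-5p, miR-124-3p and miR-9-5p together at 223656, 432211 and 387928 RPM. Of these, miR-9-5p had 144259, 125762 and 74011 RPM, whereas the other 4 were higher at P17 than at P1 in RPM. Markers of other cells were mixed in their course. The 2 miRNAs listed as pigment epithelium markers, miR-204-5p and miR-211-5p, summed to 15211, 7226 and 14334 RPM. Each was lowest at P7 in RPM, as miR-152-3p was. The share of all miRNAs lowest at P7 was not counted, so this likeness is a description only. Others, let-7a-5p and miR-125a-5p among them, were also lowest at P7 in RPM. Between P1 and P17 the 2 listed markers differed in direction, with 14661.5 and 9019 RPM for miR-204-5p and 549.7 and 5315 RPM for miR-211-5p. MiR-152-3p had 678 and 212 RPM at these ages. With a total that leaves out the top 10 miRNAs of each library, miR-152-3p was not lowest at P7 (-0.08 from P7 to P17). The 2 red cell markers summed to 46.6, 12.9 and 32.3 RPM, where miR-451a was lowest at P7 and miR-144-3p was not. The 3 muscle markers summed to 132.4, 89.97 and 240.1 RPM, the 4 markers of surface epithelium and lens to 373.6, 272.6 and 646.9 RPM, and the liver marker miR-122-5p was at 5.78, 2.27 and 3.6 RPM. Among these, miR-1a-3p, miR-133a-3p, miR-205-5p and miR-122-5p were lowest at P7, and miR-206-3p, miR-184-3p, miR-200c-3p and miR-203-3p were not. The higher sum of surface epithelium and lens markers at P17 came from miR-184-3p, with 100.7 RPM at P1 and 568.9 RPM at P17. MiR-205-5p, miR-200c-3p and miR-203-3p were each over 2-fold lower at P17 than at P1, where 46.8% of all miRNAs were. With median-of-ratios size factors 1 of the 4 markers was over 2-fold lower, where 23.9% of all miRNAs were. MiR-205-5p rests on 31, 4 and 8 reads at the 3 ages. Endothelial markers (miR-126a, both arms) summed to 1261, 3643 and 8530 RPM, mural cell markers to 195, 376.3 and 1492 RPM, and the 4 leukocyte markers to 13.6, 17.7 and 35.8 RPM. Of the leukocyte markers, miR-150-5p had 0.53, 1.8 and 17.75 RPM. MiR-142a-3p had 6.91 and 8.49 RPM at P1 and P17, and miR-142a-5p had 5.95 and 9.01 RPM. MiR-223-3p rests on 2 reads at P1 and 7 at P17, or 0.18 and 0.6 RPM. With median-of-ratios size factors the 3 leukocyte markers past the filter were over 2-fold higher at P17 than at P1, where 25.5% of all miRNAs were. The part of these cells in the levels of the family was not tested, and in bulk retina fewer cells of a type and less of a miRNA per cell cannot be told apart.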

How the data were processed

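Total RNA of retinas pooled from 5 eyes per age was sequenced as small RNA, with 1 library per age. Per the methods of the study, the authors trimmed 50-nt reads and aligned them to mm10 with HISAT2, whereas the submitters' processing notes list FastQC and BWA. The miRNA annotation and the counting rule are not given in the sources used here, so it is not known how reads shared by near-identical members were assigned. The authors deposited read counts per mature miRNA without normalization, and RPM values, which equal each count scaled to the miRNA total of its library to within 0.0192 RPM.

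Levels were taken as deposited, and changes as differences of log2(RPM + 1) over the 648 miRNAs that averaged 1 RPM or more. Intervals are 95% intervals of counting error (Wilson for levels and shares, exact binomial for ratios of 2 counts, Wald for a change of such a ratio between libraries). They cover counting error only, since no molecular identifiers mark independent molecules, and 1 library per age allows no test between ages. Median-of-ratios factors used 644 miRNAs, and TMM factors came from edgeR 4.0.16 in R 4.3.3. The alternatives were 4 other scalings, pseudocounts of 0.1 and 5 RPM, other filters and fold criteria of 1.5 and 4. The named miRNAs were the members, the 3 miRNAs nearest each member in its changes, miRNAs with the same or the offset seed, miRNAs of the miR-130 and miR-301 family, and miRNAs known to act on DNA methyltransferases or cholesterol genes. The members and lists were chosen with earlier results of these data known. The steps were run on simulated data with Poisson counting error only. There the median of the unchanged miRNAs was subtracted before calling, which was not done for the real data. The simulation therefore does not test the scaling or the spread between libraries. Sequences came from RefSeq (GRCm38.p6) and loci from the GENCODE annotation (GRCm38, the same build as mm10), and all 6 members were matched. The software was scipy 1.17.1, pandas 2.3.3 and numpy 2.4.6 under Python 3.11.15, with matplotlib 3.10.9 for the plots.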

Additional observations from a re-analysis of the deposited data

How the results depend on the processing

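No paired analysis was possible because there was a single library at every age. The direction of the summed 3p forms depended on the scaling. From P1 to P7 their log2 change was -0.57 as RPM. It was 0.39 after median-of-ratios scaling, 0.42 after TMM scaling, 0.056 when the top 10 miRNAs of each library (13 in all, miR-148a-3p among them) were left out of the total, and -0.16 for a total that leaves out miR-182, miR-183 and miR-96. From P7 to P17 it was -0.21 with RPM, and -0.13, -0.15 and -0.46 with the first 3 of these alternatives. From P1 to P17 it was -0.78 with RPM and 0.27, 0.27, -0.40 and -0.38 with the 4 alternatives. Single members turned with it. MiR-148a-3p changed by 0.43, 0.45 and 0.092 from P1 to P7 with the first 3 alternatives and by 0.29 and 0.30 from P1 to P17 with the first 2. MiR-148b-3p changed by 0.23 and 0.26 from P1 to P7 and by 0.14 and 0.14 from P1 to P17 with the first 2. MiR-152-3p changed by -0.076 from P7 to P17 with the third alternative. These shifts follow from the scaling, which moves all miRNAs of a library alike. Median-of-ratios factors for P1, P7 and P17 were 1.503, 0.862 and 0.743, and TMM factors were 1.599, 0.808 and 0.774. The number of members over 2-fold between P1 and P17 was 2 with median-of-ratios factors, 2 with TMM factors, 2 with a fold criterion of 4 and 6 with one of 1.5, against 4, each of them lower. The shares of all miRNAs that were lower were 23.9%, 23.9%, 21.8% and 59.9% in the same order, against 46.8%. The share of miR-148a among the reads of both arms was 88.2% at P1, against 88.4% among the 3p reads. Of 108 alternative values for single members, 51 stayed within counting error, 47 moved beyond it with the same sign and 10 changed sign. A pseudocount of 1 RPM on both arms left the arm ratio changes within counting error. Depth limits miR-152-5p most, with 80 reads at P17.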

Other observations

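MiRNAs known to act on cholesterol genes, a setting in which miR-148a is also studied, formed another list, also chosen with earlier results of these data known. Of 9 listed, 8 passed the filter, of which 3 were lower and 1 higher by over 2-fold at P17 than at P1, where 46.8% and 10.5% of all miRNAs were, with a median log2 change of -0.55 against -0.91 over all miRNAs. From P1 to P7, 4 of the 8 were over 2-fold lower, where 44.8% of all miRNAs were. Their median log2 change at this step was -0.82, against -0.87 over all miRNAs. With median-of-ratios size factors 2 were lower and 2 higher from P1 to P17, where 23.9% and 25.5% of all miRNAs were. MiR-33-5p, encoded in an intron of Srebf2 and known for acting on the cholesterol exporter ABCA1, had 46.7, 7.99 and 7.12 RPM at P1, P7 and P17. MiR-128-3p, abundant in neurons, had 9375, 4134 and 4060 RPM. MiR-30c-5p had 19043, 17347 and 19255 RPM, so that at P17 it was above miR-148a-3p (16620 RPM), whereas at P1 it was below it (27983 RPM). MiR-144-3p, the member that was higher, rests on 13 reads at P1 and 52 at P17.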
